A study of Mus musculus with 9 samples.

Results

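The integrin and laminin genes were taken as every gene of the deposited FPKM matrix whose symbol begins with Itga or Itgb, or with Lama, Lamb or Lamc followed by a digit. The rule found 39 of the 17753 genes with a symbol: 15 integrin alpha subunits, 9 integrin beta subunits, 4 genes that are named after an integrin but encode no subunit, and 11 laminin chains. Their RNA was measured by RNA-seq, with a kit that selects polyadenylated RNA, in 3 libraries each of brown fat, white fat and soleus, a slow postural muscle of the lower leg. All libraries came from male C57BL/6J mice with wild-type genes, 3 months old, for which no treatment is named, so the tissues share strain, sex and age, and no transgene is named for any group. The labels do not say which libraries came from the same mouse, nor that each library is a separate mouse, so p-values measure the spread between these libraries, which may be technical. The sources used here do not say which depot the white fat came from. Each library is bulk tissue and holds vessels, nerve, fibroblasts and blood-derived cells beside fat cells or muscle fibres; fewer cells of a type and less RNA per cell cannot be told apart in such data. Itga10, Itgad and Itgax were not analysed here.

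Laminins are cross-shaped glycoproteins of the basement membrane, the sheet of matrix that wraps every fat cell, muscle fibre, Schwann cell and capillary. Each is a trimer of 1 alpha, 1 beta and 1 gamma chain; the alpha chain carries the domains that cell-surface receptors bind, and nidogen and type IV collagen link the laminin sheet into a network. Integrins are receptors made of 1 alpha and 1 beta subunit that hold cells to this matrix from outside and to the actin cytoskeleton from inside. The alpha subunit largely sets the ligand: collagen, laminin, proteins with an Arg-Gly-Asp (RGD) motif such as fibronectin, or counter-receptors on other cells in the case of the leukocyte integrins. In skeletal muscle the laminin made with Lama2, its receptors containing Itga7 and Itgb1, and dystroglycan anchor the fibre; loss of Lama2 causes a congenital muscular dystrophy.

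Levels are FPKM, fragment numbers corrected for how long a transcript is and how deeply its library was read, which allow levels of different genes to be set side by side. The summed FPKM of a library was lowest at 213936 (white fat replicate 2) and highest at 352502 (soleus replicate 2), and 8487 to 9305 genes reached 1 FPKM. The step ratio most often shared by genes with low values put relative depth between 1 in white fat replicate 2 and 3.58 in white fat replicate 3; absolute read numbers were not analysed here. The tissue labels were checked against markers: the 8 brown fat markers summed to 11800 to 13160 FPKM in brown fat against 38.8 to 178 in white fat and 4269 to 5641 in soleus, the 6 white fat markers to 4618 to 5948 FPKM in white fat against at most 160 elsewhere, and the 6 measured slow-muscle markers to 23130 to 27648 FPKM in soleus against at most 66.0. Acta1, Ckm and Mb, which every muscle fibre uses, were listed at 0 in all soleus libraries, so an exact 0 in this matrix can be a failed estimate.

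Transcripts of 29 members reached 1 FPKM in at least 3 libraries and were tested with limma on log2(FPKM + 1), with Benjamini-Hochberg adjustment over all 9913 genes tested; a gene was called where the adjusted p was under 0.05. White fat stood highest for 18 of these 29 members, soleus for 8 and brown fat for 3. In brown against white fat, 4 members were higher and 20 lower, where 38.0% of all genes tested were called higher and 34.8% lower. In brown fat against soleus, 8 members were higher and 17 lower, beside 52.9% and 25.6% of all genes. In white fat against soleus, 19 members were higher and 5 lower, beside 54.5% and 29.7% of all genes. The median log2 difference of the tested members was -1.18 in brown against white fat (0.03 over all genes), -0.24 in brown fat against soleus (0.29 over all genes) and 0.63 in white fat against soleus (0.35 over all genes). The comparisons share libraries, so these are 3 views of 9 libraries. Members that passed the minimum through a single tissue had to differ, and the counts describe the list without supporting a statement about it. The same holds for the counts of the other gene lists given below.

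The scale on which libraries are set side by side moved all genes together. Rescaling to TPM moved the median of all genes in brown against white fat from 0.03 to -0.50 and in white fat against soleus from 0.35 to 0.93, and median of ratios scaling moved it in brown fat against soleus from 0.29 to -0.01 and in white fat against soleus from 0.35 to -0.02. Of all genes called in brown against white fat, 52.2% were higher on the FPKM scale and 22.6% on the TPM scale. In brown fat against soleus 67.4% of called genes were higher on the FPKM scale and 49.3% with median of ratios, and in white fat against soleus 64.7%, 78.8% with TPM and 48.7% with median of ratios. The members were mostly lower in brown than in white fat on every scale tried. With TPM 3 were higher and 23 lower, beside 18.1% and 61.9% of all genes tested. With upper quartile scaling the counts were 4 and 20, beside 30.1% and 41.1%, and with median of ratios 4 and 19, beside 40.9% and 32.4%. The makeup of a chain class within a library, given below as a share of the class total, does not depend on this scaling.

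**Figure D1:**
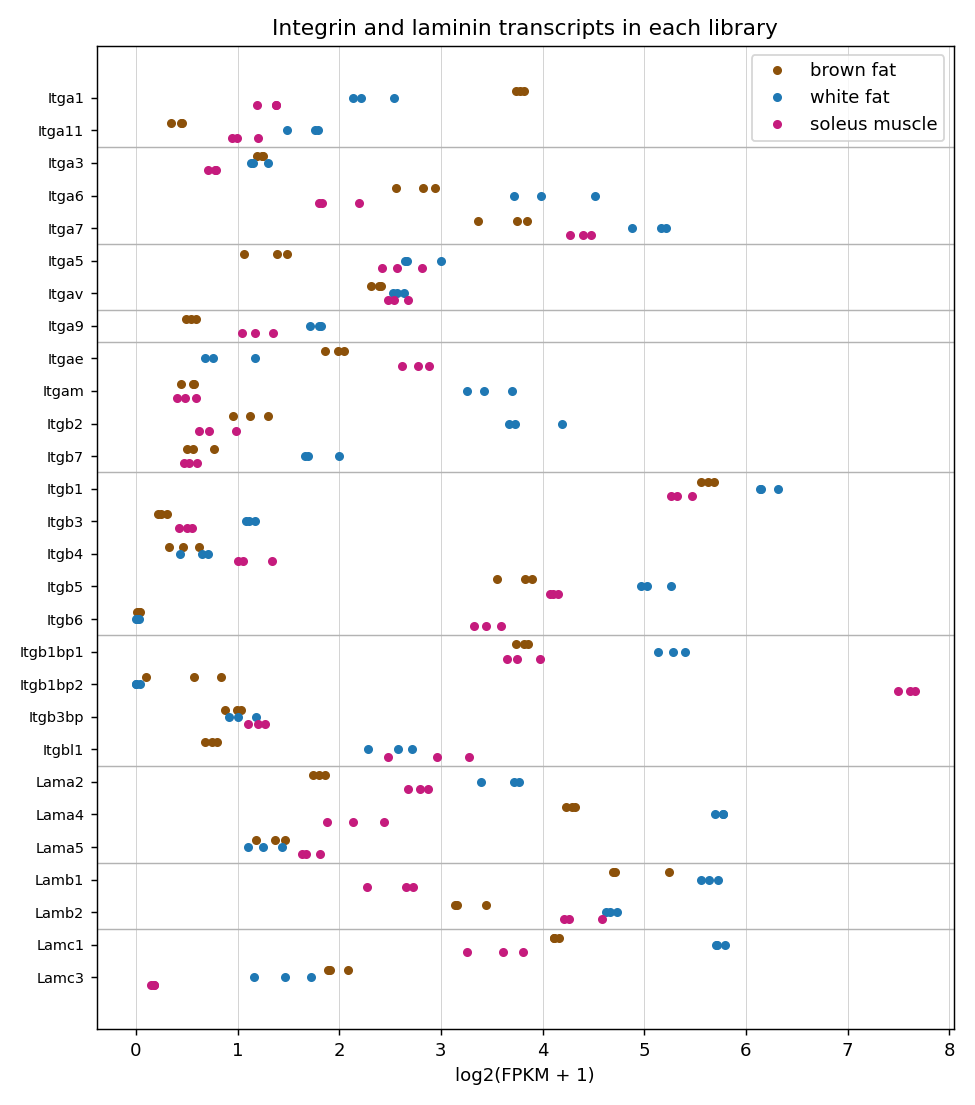
Level of 28 tested integrin and laminin genes as log2(FPKM + 1), with 1 point per library coloured by tissue and grey lines between roles. White fat stands highest for 18 of the 28 genes by its mean, and Itgb1bp2 and Itgb6 stand apart in soleus.

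The laminin chains were most abundant in white fat. Their summed level was 196 ± 7.96 FPKM in white fat, against 80.5 ± 7.06 in brown fat and 49.6 ± 6.42 in soleus (mean ± SD, n = 3 libraries each). Among the 8 laminin chains tested, the chains of adult vessel, fat and muscle basement membranes (Lama2, Lama4, Lama5, Lamb1, Lamb2, Lamc1) carried most of this total. The 24 integrin subunits summed to 208 ± 9.75 FPKM in white fat, against 106 ± 1.71 in brown fat and 113 ± 7.67 in soleus.

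Lama4, the alpha chain of vessel and fat-cell basement membranes, was the leading alpha chain of both fats. It measured 18.9, 18.6 and 17.8 FPKM in the brown fat libraries, 50.7, 53.8 and 53.7 in those of white fat, and 4.43, 2.68 and 3.41 in those of soleus. All libraries of each tissue lay apart from those of the others. The log2 difference was -1.47 (SE 0.12, adjusted p = 9e-07) in brown against white fat, 2.13 (SE 0.12, adjusted p = 3e-08) in brown fat against soleus and 3.59 (SE 0.12, adjusted p = 4.8e-10) in white fat against soleus. As a sum, the endothelial marker list had another order: its 9 measured genes summed to 139 to 154 FPKM in brown fat, 81.6 to 121 in white fat and 87.1 to 95.2 in soleus, and 7 of 9 were called higher in brown fat, set against white fat. Cldn5, a gene of that list, had the order of Lama4 by its means, at 21.3, 29.3 and 7.20 FPKM in brown fat, white fat and soleus. The part of endothelium in the level of Lama4 was not tested.

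Lama2, the alpha chain of the muscle fibre and Schwann cell basement membrane, was also highest in white fat. Its values were 2.62, 2.48 and 2.35 FPKM in the brown fat libraries, 9.54, 12.6 and 12.1 in those of white fat and 5.92, 5.38 and 6.31 in those of soleus, with no overlap between tissues. Brown fat was lower than white fat by a log2 difference of -1.83 (SE 0.10, adjusted p = 4.8e-08), and white fat was higher than soleus by 0.85 (SE 0.10, adjusted p = 1.3e-05). The 6 measured markers of fibroblasts and adipose progenitors moved the same way, summing to 179 to 201 FPKM in brown fat, 1049 to 1242 in white fat and 292 to 381 in soleus; their part in the level of Lama2 was not tested. Lama5, a broadly used alpha chain of mature basement membranes, was low throughout at 1.54 ± 0.244 FPKM in brown fat, beside 1.41 ± 0.281 in white fat and 2.27 ± 0.223 in soleus. Soleus stood above brown fat (log2 difference of brown fat against soleus -0.37, adjusted p = 0.0077) and above white fat (-0.44, adjusted p = 0.0022), but on the TPM scale the difference from white fat was -0.12 with adjusted p = 0.51.

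Within a library, the alpha chains changed places between the fats and the muscle. Lama4 made up 81.9 ± 0.996% of the alpha chain FPKM in brown fat, 80.1 ± 1.83% of that in white fat and 29.7 ± 4.79% of that in soleus. Lama2 made up 11.0 ± 0.234%, 17.3 ± 1.59% and 50.3 ± 2.92%, and Lama5 6.82 ± 0.997%, 2.13 ± 0.326% and 19.4 ± 1.81%, in the same order. The share of Lama4 overlapped between the fats and was lower in all 3 soleus libraries, and the share of Lama2 was highest in all 3 soleus libraries although its FPKM was highest in white fat. With 3 libraries against 3, a two-sided exact permutation test cannot go below p = 0.1; of 45 such tests on shares of the 6 chain classes, 37 reached it because the groups did not overlap, and the smallest Benjamini-Hochberg adjusted p was 0.12.

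The beta chains showed the same kind of exchange. Lamb1, the partner of Lama4 and Lama2 in most early and vascular laminins, measured 36.8, 25.3 and 24.95 FPKM in the brown fat libraries, 46.2, 52.0 and 48.7 in those of white fat and 5.60, 3.85 and 5.31 in those of soleus. Soleus lay far below both fats, and brown fat replicate 1 stood above the other brown fat libraries without reaching white fat. The log2 difference was 2.33 (SE 0.16, adjusted p = 1.3e-07) in brown fat against soleus, 3.09 (SE 0.16, adjusted p = 1.1e-08) in white fat against soleus and -0.76 (SE 0.16, adjusted p = 0.0012) in brown against white fat. Lamb2, the beta chain concentrated at the neuromuscular junction, in larger vessels and in the kidney filter, measured 7.92, 7.78 and 9.89 FPKM in the brown fat libraries, 24.4, 23.7 and 25.7 in those of white fat and 18.2, 17.5 and 23.0 in those of soleus. Brown fat was lower than white fat by -1.43 (SE 0.11, adjusted p = 7.9e-07) and lower than soleus by -1.11 (SE 0.11, adjusted p = 4.7e-06). White fat lay above soleus by 0.32 (SE 0.11, adjusted p = 0.021), a difference that turned to -0.13 (adjusted p = 0.28) under median of ratios scaling and lost its call without white fat replicate 3 (0.29, adjusted p = 0.064), soleus replicate 1 (0.28, adjusted p = 0.068) or soleus replicate 2 (0.25, adjusted p = 0.084). As a share of beta chain FPKM, Lamb1 made up 75.2 ± 5.57% in brown fat, beside 65.7 ± 1.95% in white fat and 19.3 ± 2.99% in soleus, and Lamb2 22.7 ± 5.15%, 33.0 ± 1.74% and 76.6 ± 2.60%. So Lamb1 exceeded Lamb2 in all 6 fat libraries and Lamb2 exceeded Lamb1 in all 3 soleus libraries.

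Since these 2 beta chain genes exchange places between fat and muscle, the 250 bases before their annotated starts are shown, read 5′ to 3′ on the strand of the gene. The sequences are from RefSeq on the GRCm38.p6 build, chr12:31265043-31265292 (plus strand) for Lamb1 and chr9:108479612-108479861 (plus strand) for Lamb2; the expression files use mm9 and no coordinate was carried between builds. Capitals mark CANNTG on either strand, the core letters of the E-box read by muscle and other basic helix-loop-helix factors. Of the 39 members, 25 have an entry in the promoter table.
Lamb1: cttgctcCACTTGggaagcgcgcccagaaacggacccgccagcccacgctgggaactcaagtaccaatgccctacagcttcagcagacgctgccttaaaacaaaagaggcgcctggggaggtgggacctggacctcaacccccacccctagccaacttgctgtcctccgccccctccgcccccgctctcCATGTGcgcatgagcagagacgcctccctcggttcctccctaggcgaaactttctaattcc
Lamb2: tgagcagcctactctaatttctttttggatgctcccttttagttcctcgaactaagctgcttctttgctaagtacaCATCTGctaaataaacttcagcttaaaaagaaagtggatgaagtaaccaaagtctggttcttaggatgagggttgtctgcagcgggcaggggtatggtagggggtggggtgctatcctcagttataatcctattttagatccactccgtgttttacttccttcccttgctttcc
The Lamb1 window holds 2 CANNTG matches, 14 CpG dinucleotides and 62% G or C, and the Lamb2 window 1 match, 3 CpG and 43.6%. Over the 32817 windows of this length in the table, 66.2% hold at least 1 CANNTG, the median is 1 match and 6 CpG, 29.3% have at least as many CpG as Lamb1 and 37.8% at most as many as Lamb2. Both windows thus lie within the common range, and a match describes letters, not binding.

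**Figure D2:**
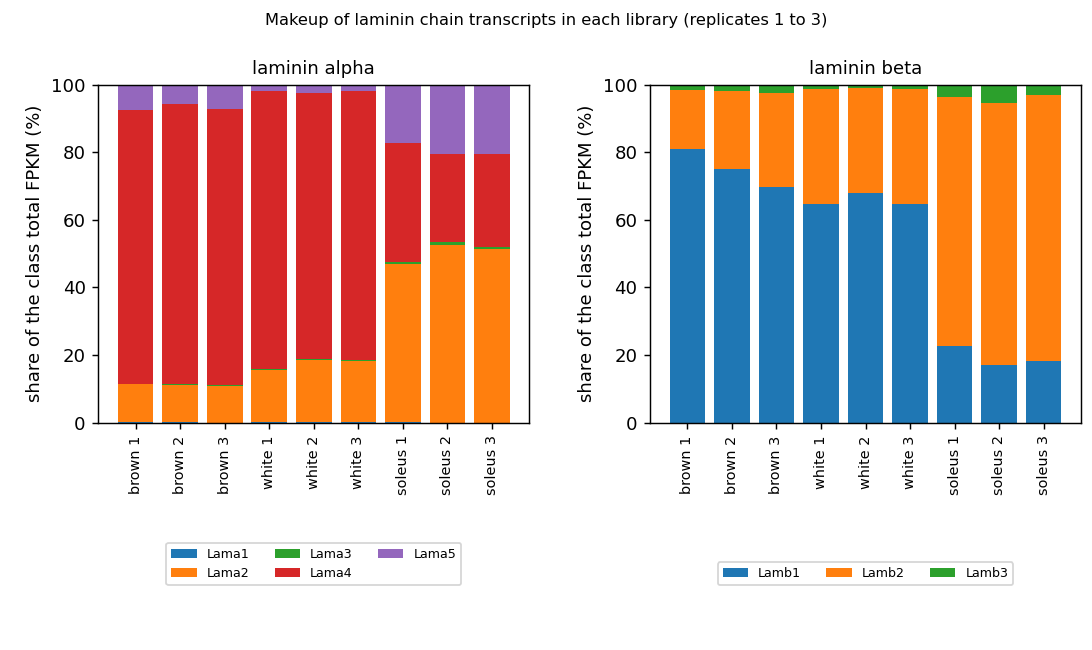
Share of the FPKM of laminin alpha and beta chains taken by each chain, in percent, with 1 stacked bar per library. Lama4 and Lamb1 fill most of the bars in the 6 fat libraries, while Lama2 and Lamb2 take the largest part of each soleus bar.

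Lamc1, the gamma chain of nearly all basement membranes, measured 16.9, 16.3 and 16.3 FPKM in the brown fat libraries, 51.2, 54.4 and 51.7 in those of white fat and 11.2, 8.54 and 13.0 in those of soleus. White fat was above brown fat (log2 difference of brown against white fat -1.61, SE 0.12, adjusted p = 4e-07) and above soleus (2.18, SE 0.12, adjusted p = 1.8e-08). Brown fat lay above soleus by 0.57 (adjusted p = 0.001), which was 0.22 (adjusted p = 0.11) under upper quartile scaling and 0.19 (adjusted p = 0.15) under median of ratios. Lamc3, a gamma chain known from nerve, retina and some epithelia, went the other way and was highest in brown fat. It measured 2.75, 3.24 and 2.71 FPKM in the brown fat libraries, 1.24, 2.30 and 1.76 in those of white fat and 0.128, 0.112 and 0.128 in those of soleus. Brown fat was above white fat by 0.51 (SE 0.12, adjusted p = 0.0034; 0.14 with adjusted p = 0.52 on the TPM scale) and above soleus by 1.79 (SE 0.12, adjusted p = 1.6e-07). As a share of gamma chain FPKM, which no scaling changes, Lamc3 made up 14.8 ± 1.38% in brown fat, beside 3.17 ± 0.842% in white fat and 0.995 ± 0.101% in soleus, without overlap.

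Lama3 and Lamb3, chains of the laminin that anchors stratified epithelia, were low everywhere and were not tested. Lama3 was at most 0.173 FPKM in any library. Lamb3 reached 1 FPKM in 2 libraries only and averaged 0.772, 0.898 and 1.02 FPKM in brown fat, white fat and soleus. Lama1, the alpha chain of the embryonic basement membrane, averaged 0.120 FPKM in white fat and at most 0.00579 in any brown fat or soleus library.

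Among the laminin-binding integrin alpha subunits, Itga7, the laminin receptor subunit of muscle fibres and smooth muscle, was higher in white fat than in soleus. It measured 9.32, 13.4 and 12.4 FPKM in the brown fat libraries, 36.0, 34.8 and 28.4 in those of white fat and 20.1, 18.3 and 21.2 in those of soleus, with no overlap between tissues. Brown fat was below white fat by a log2 difference of -1.43 (SE 0.13, adjusted p = 2.4e-06) and below soleus by -0.73 (SE 0.13, adjusted p = 0.00038). White fat was above soleus by 0.70 (SE 0.13, adjusted p = 0.00044), and under median of ratios scaling by 0.24 with adjusted p = 0.1. The 9 measured skeletal muscle markers summed to 18.4 to 37.5 FPKM in white fat and to 17172 to 20451 in soleus. The part of skeletal muscle RNA in the level of Itga7 was not tested. The 7 measured markers of smooth muscle and pericytes summed to 78.9 to 85.6 FPKM in white fat, below the 107 to 119 of brown fat and the 123 to 139 of soleus. Rgs5, a pericyte gene, made up most of that sum in brown fat and soleus (75.0, 23.8 and 80.2 FPKM on average in brown fat, white fat and soleus). Acta2, the actin of smooth muscle, had the order of Itga7, at 8.77 ± 0.584, 32.1 ± 8.79 and 22.7 ± 0.383 FPKM, with white fat and soleus overlapping. Of the 6 tested markers of this list, 3 were higher and 2 lower in brown against white fat, the lower ones being Acta2 and Tagln; the part of smooth muscle in the level of Itga7 was not tested.

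Itga6, the laminin receptor subunit of endothelium, nerve sheath and epithelia, was selective for white fat. It measured 6.68, 4.89 and 6.08 FPKM in the brown fat libraries, 14.8, 21.8 and 12.2 in those of white fat and 2.48, 2.55 and 3.59 in those of soleus. The white fat libraries varied most and still lay above all others. Brown against white fat gave -1.30 (SE 0.19, adjusted p = 0.0001), brown fat against soleus 0.83 (SE 0.19, adjusted p = 0.002) and white fat against soleus 2.13 (SE 0.19, adjusted p = 1.1e-06). Itga3, the third laminin receptor subunit, was near 1 FPKM everywhere, at 1.34 ± 0.0491 in brown fat, beside 1.29 ± 0.150 in white fat and 0.696 ± 0.0490 in soleus. Its difference between the fats was 0.03 (adjusted p = 0.71) and turned to -0.44 (adjusted p = 0.0061) on the TPM scale. Of the laminin-binding alpha FPKM, Itga7 took 61.5 ± 7.38% in brown fat, beside 65.7 ± 5.08% in white fat and 84.8 ± 1.74% in soleus, and Itga6 31.4 ± 6.75%, 31.7 ± 5.10% and 12.2 ± 1.74%. The shares of Itga6 and of Itga7 overlapped between the fats and stood apart in soleus, lower for Itga6 and higher for Itga7.

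The collagen-binding subunits moved in opposite directions between the fats. Itga1, a collagen receptor subunit of endothelium, smooth muscle and fibroblasts, was the one member selective for brown fat, meaning called and at least 1 log2 unit above both other tissues, as were 6.42% of all genes tested. It measured 12.4, 12.7 and 13.1 FPKM in the brown fat libraries, 3.40, 4.79 and 3.63 in those of white fat and 1.59, 1.28 and 1.60 in those of soleus. The 3 brown fat libraries lay close together and far above the rest. The log2 difference was 1.49 (SE 0.10, adjusted p = 2.9e-07) against white fat and 2.46 (SE 0.10, adjusted p = 3.2e-09) against soleus, and white fat was above soleus by 0.98 (SE 0.10, adjusted p = 5.2e-06). Kdr, the main growth factor receptor of capillary endothelium, was highest in the same tissue, at 19.4 ± 1.16 FPKM in brown fat, beside 6.17 ± 1.43 in white fat and 5.56 ± 0.704 in soleus, as was the summed endothelial list. Of its 9 tested genes, 7 were called higher and 0 lower against white fat, and 8 higher and 1 lower against soleus. Egfl7 was highest in soleus (17.0, 11.5 and 29.5 FPKM in brown fat, white fat and soleus). Cldn5 had its highest mean in white fat (21.3, 29.3 and 7.20 FPKM in the same order). The part of endothelium in the level of Itga1 was not tested.

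Itga11, the fibrillar collagen receptor subunit of fibroblasts, was lowest in brown fat. It measured 0.370, 0.268 and 0.363 FPKM in the brown fat libraries, 2.40, 1.80 and 2.46 in those of white fat and 1.31, 0.924 and 0.992 in those of soleus, with brown against white fat at -1.27 (SE 0.10, adjusted p = 7.7e-07). Itga2, the collagen receptor subunit of platelets and epithelia, was at most 0.154 FPKM and was not tested. Itga1 took 97.3 ± 0.432% of the collagen-binding alpha FPKM in brown fat, against 62.3 ± 7.56% in white fat and 57.6 ± 3.78% in soleus. The shares in white fat and soleus overlapped, and all 3 brown fat libraries lay above them.

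The receptors for RGD proteins rested on Itgav and Itga5. Itgav, which pairs with several beta subunits, differed little between tissues: 4.18 ± 0.189 FPKM in brown fat, beside 4.98 ± 0.237 in white fat and 4.93 ± 0.430 in soleus. Brown fat was below white fat by -0.21 (adjusted p = 0.027) and below soleus by -0.19 (adjusted p = 0.033), but both calls rested on single libraries. Against white fat the call was lost without brown fat replicate 1 (-0.18, adjusted p = 0.083) or 2 (-0.22, adjusted p = 0.05), or white fat replicate 2 (-0.18, adjusted p = 0.087) or 3 (-0.21, adjusted p = 0.061). Against soleus it was lost without brown fat replicate 1 (-0.16, adjusted p = 0.099) or 2 (-0.20, adjusted p = 0.058), white fat replicate 3 (-0.19, adjusted p = 0.05), or soleus replicate 2 (-0.21, adjusted p = 0.053) or 3 (-0.14, adjusted p = 0.12). Between white fat and soleus the difference was 0.01 (adjusted p = 0.87), and it turned to -0.16 (adjusted p = 0.047) with upper quartile and -0.39 (adjusted p = 0.00036) with median of ratios scaling. Itga5, the fibronectin receptor subunit, measured 1.81, 1.08 and 1.62 FPKM in the brown fat libraries, 5.36, 7.02 and 5.27 in those of white fat and 4.36, 4.95 and 6.03 in those of soleus. Brown fat was below white fat by -1.46 (SE 0.14, adjusted p = 4.1e-06) and below soleus by -1.29 (SE 0.14, adjusted p = 8.3e-06). White fat and soleus overlapped (0.17, SE 0.14, adjusted p = 0.28), and on the TPM scale the difference was 0.72 (adjusted p = 0.0043). Itga8, a nephronectin receptor subunit of smooth muscle and kidney, was at most 0.303 FPKM. Itga2b, the platelet fibrinogen receptor subunit, was at most 0.695 FPKM and highest in brown fat; neither was tested.

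Itga9, a receptor subunit for tenascin and other matrix proteins, measured 0.456 ± 0.0479 FPKM in brown fat, beside 2.43 ± 0.128 in white fat and 1.29 ± 0.245 in soleus, without overlap (brown against white fat -1.23, SE 0.08, adjusted p = 2.4e-07). Itga4, its close relative on leukocytes, reached 1 FPKM in 2 white fat libraries and was not tested. Its values were 0.979, 1.38 and 1.67 FPKM in white fat and at most 0.174 elsewhere.

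Itgb1 was the most abundant subunit in every tissue and is the beta partner of all the laminin- and collagen-binding alpha subunits named above. It measured 50.5, 48.3 and 46.1 FPKM in the brown fat libraries, 69.3, 78.6 and 69.8 in those of white fat and 37.4, 38.9 and 43.2 in those of soleus, without overlap. The log2 difference was -0.58 (SE 0.08, adjusted p = 0.0001) in brown against white fat and 0.85 (SE 0.08, adjusted p = 2.8e-06) in white fat against soleus. Brown fat against soleus gave 0.27 (SE 0.08, adjusted p = 0.012), which turned to -0.09 (adjusted p = 0.28) with upper quartile and -0.13 (adjusted p = 0.15) with median of ratios scaling. Itgb5, a partner of Itgav that binds vitronectin, measured 10.8, 13.2 and 13.8 FPKM in the brown fat libraries, 37.4, 30.3 and 31.7 in those of white fat and 16.2, 15.8 and 16.8 in those of soleus. White fat stood apart at the top (brown against white fat -1.33, SE 0.10, adjusted p = 6.9e-07). Itgb3, the beta subunit of platelets, macrophages and growing vessels, was low at 0.195 ± 0.0398, 1.17 ± 0.0719 and 0.411 ± 0.0624 FPKM in brown fat, white fat and soleus. Itgb8, a further partner of Itgav, was at most 0.184 FPKM.

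Itgb6 is a partner of Itgav only, known from epithelia, where the pair activates latent TGF-beta. Here it measured 9.03, 9.90 and 11.0 FPKM in soleus, 0.00694, 0.0301 and 0.0190 in brown fat, and 0.0199, 0 and 0.0103 in white fat. All soleus libraries were high and all fat libraries near 0, with a log2 difference on the log2(FPKM + 1) scale of -3.43 (SE 0.08, adjusted p = 2.2e-11) in brown fat and -3.44 (SE 0.08, adjusted p = 2.6e-11) in white fat against soleus. The 8 markers of stratified epithelium summed to 1.67 to 2.21 FPKM in soleus, with Krt5, Krt15 and Dsg3 listed at 0. Most of that sum was Trp63 at 1.81 ± 0.281. The same markers summed to 0.0807 to 0.153 FPKM in brown fat and 2.19 to 6.35 in white fat. The 1 tested gene of the list was called lower in each fat than in soleus. The part of epithelium in the level of Itgb6 was not tested. Itgb6 took 15.0 ± 0.603% of the FPKM of the beta partners of Itgav in soleus, and its level there was above that of Itgav. The 250 bases before each of its annotated starts are shown because no other integrin subunit was selective for soleus (RefSeq, GRCm38.p6, minus strand, chr2:60722604-60722853 and chr2:60673694-60673943; capitals mark CANNTG).
Itgb6, first start: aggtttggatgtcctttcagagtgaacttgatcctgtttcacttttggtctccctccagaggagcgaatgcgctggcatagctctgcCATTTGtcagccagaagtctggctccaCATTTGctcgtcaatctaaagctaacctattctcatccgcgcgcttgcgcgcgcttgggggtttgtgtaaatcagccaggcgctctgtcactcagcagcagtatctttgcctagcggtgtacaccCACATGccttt
Itgb6, second start: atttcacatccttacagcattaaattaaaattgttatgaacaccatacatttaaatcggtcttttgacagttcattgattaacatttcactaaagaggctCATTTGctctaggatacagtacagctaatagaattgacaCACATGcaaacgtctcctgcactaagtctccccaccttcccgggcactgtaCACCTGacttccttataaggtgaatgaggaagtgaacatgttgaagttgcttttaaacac
Each window holds 3 CANNTG matches, against a median of 1 over all windows, with 11 CpG and 52% G or C in the first and 3 CpG and 38% in the second. Which start was used was not analysed here.

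Itgb4, the hemidesmosome partner of Itga6, which Schwann cells and perineurium also make, was highest in soleus at 1.00, 1.08 and 1.52 FPKM, against 0.392 ± 0.143 in brown fat and 0.519 ± 0.147 in white fat. Brown fat against soleus gave -0.66 (adjusted p = 0.0003) and white fat against soleus -0.53 (adjusted p = 0.0012).

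**Figure D3:**
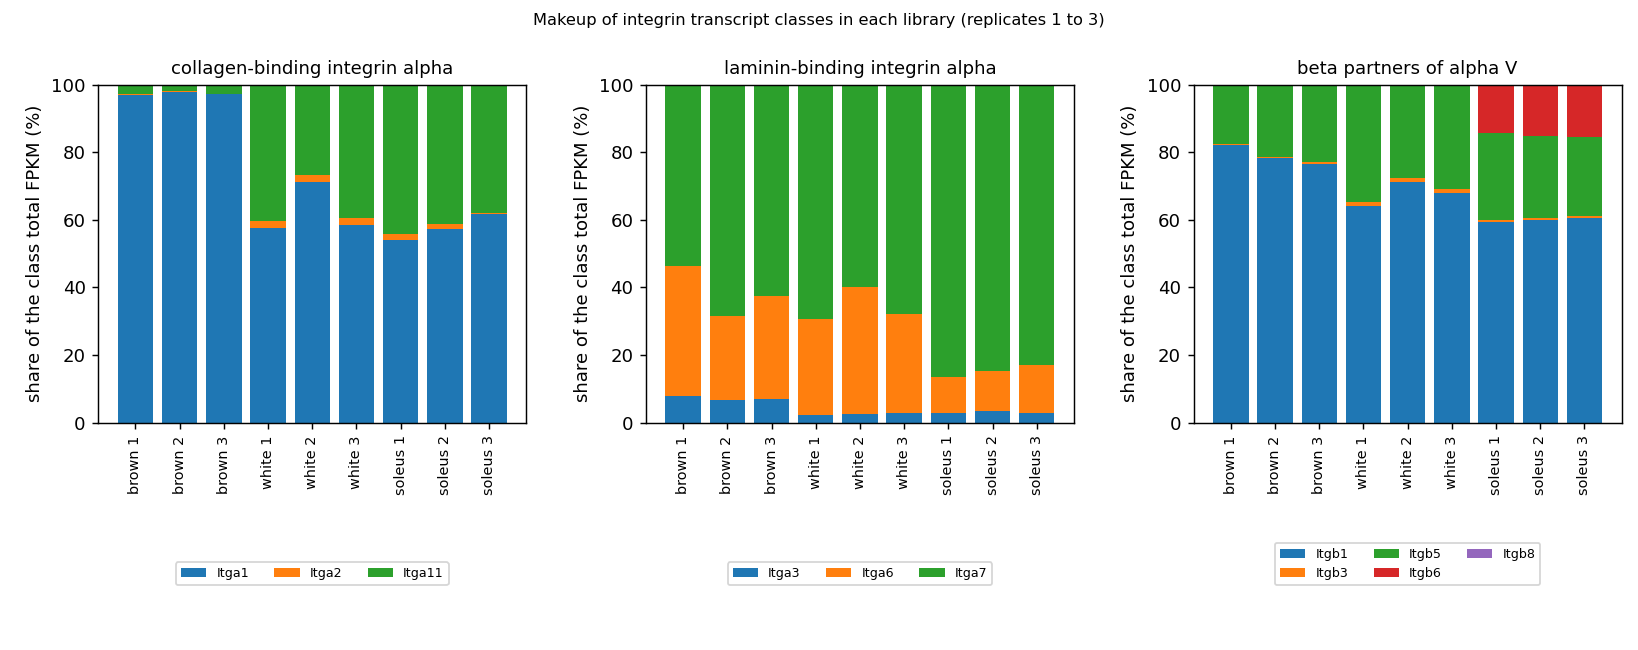
Share of class FPKM, in percent, for the collagen-binding alpha subunits, the laminin-binding alpha subunits and the beta partners of Itgav, with 1 stacked bar per library. Itga1 fills 97.3% of the collagen-binding class in brown fat on average, and Itgb6 appears in the soleus bars at 15.0%.

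The leukocyte integrins had their highest means in white fat, with Itgae as the exception. Itgam, which with Itgb2 forms the complement receptor of macrophages and neutrophils, measured 0.487, 0.475 and 0.364 FPKM in the brown fat libraries, 8.54, 9.72 and 12.0 in those of white fat and 0.504, 0.328 and 0.402 in those of soleus. Its log2 difference was -2.93 (SE 0.11, adjusted p = 3e-09) in brown against white fat and 2.96 (SE 0.11, adjusted p = 9.9e-10) in white fat against soleus. Itgb2, the common beta subunit of the leukocyte integrins, measured 0.936, 1.46 and 1.17 FPKM in the brown fat libraries, 11.7, 12.2 and 17.2 in those of white fat and 0.977, 0.643 and 0.540 in those of soleus. White fat replicate 3 was the highest library for both genes, and brown fat and soleus overlapped for both. For Itgb2, brown fat against soleus gave 0.35 (adjusted p = 0.052), which passed the threshold without brown fat replicate 1 (0.43, adjusted p = 0.032), white fat replicate 1 (0.35, adjusted p = 0.049), white fat replicate 3 (0.35, adjusted p = 0.019) or soleus replicate 1 (0.45, adjusted p = 0.026). Itgb7, the partner of Itga4 and Itgae on lymphocytes, measured 2.46 ± 0.467 FPKM in white fat, 0.529 ± 0.153 in brown fat and 0.446 ± 0.0677 in soleus. Itgal, the lymphocyte partner of Itgb2, stayed under 1 FPKM in every library, at 0.262, 0.787 and 0.103 FPKM on average in brown fat, white fat and soleus. The 13 measured leukocyte markers summed to 53.0 to 64.9 FPKM in brown fat, 522 to 653 in white fat and 38.3 to 52.5 in soleus, and all 10 of them tested were called lower in brown against white fat. The pan-leukocyte gene Ptprc was also highest in white fat replicate 3, at 5.82, 6.14 and 9.40 FPKM over the white fat libraries; the part of leukocyte number in these integrin levels was not tested.

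Itgae, the subunit of tissue-resident lymphocytes and some dendritic cells, which pairs with Itgb7 only, had the opposite order. It measured 2.63, 3.12 and 2.96 FPKM in the brown fat libraries, 0.696, 1.26 and 0.607 in those of white fat and 5.14, 6.39 and 5.83 in those of soleus. Soleus was highest and white fat lowest, without overlap. The log2 difference was 1.09 (SE 0.13, adjusted p = 1.7e-05) in brown against white fat, -0.80 (SE 0.13, adjusted p = 0.00015) in brown fat against soleus and -1.88 (SE 0.13, adjusted p = 1e-07) in white fat against soleus. Its partner Itgb7 and the T cell gene Cd3e had their lowest means in soleus, with Cd3e at 0.249 ± 0.0818, 0.274 ± 0.159 and 0.0215 ± 0.000437 FPKM in brown fat, white fat and soleus. For Itgb7, brown fat and soleus overlapped and did not differ by limma (0.08, adjusted p = 0.52). The part of lymphocytes in the level of Itgae was not tested. P2rx5, an ATP-gated channel gene, is the next gene of the matrix after Itgae in the RefSeq gene order (GRCm38.p6), apart from Haspin, which lies inside Itgae. P2rx5 had the same order of tissues as Itgae, at 3.18, 2.22 and 3.36 FPKM in the brown fat libraries, 0, 0.223 and 0.104 in those of white fat and 15.4, 16.3 and 16.5 in those of soleus; Haspin did not, at 0.0909, 0.243 and 0.109 FPKM on average. These neighbours were looked up after the values of Itgae were seen, and whether reads of P2rx5 enter the value of Itgae was not tested.

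Of the 4 genes named after an integrin without being a subunit, Itgb1bp2 differed most. It encodes melusin, a chaperone of heart and skeletal muscle that binds the tail of the Itgb1 product. It measured 179, 201 and 195 FPKM in soleus, 0.0736, 0.792 and 0.484 in brown fat, and only 0.0286 in white fat replicate 3, with the other white fat libraries listed at 0. The log2 difference on the log2(FPKM + 1) scale was -7.09 (SE 0.15, adjusted p = 1.7e-11) in brown fat against soleus and -7.58 (SE 0.15, adjusted p = 1.2e-11) in white fat against soleus. Brown fat stood above white fat by 0.49 (adjusted p = 0.013), and with a pseudocount of 5 by 0.12 (adjusted p = 0.11). The brown fat libraries had the same order in summed skeletal muscle markers, at 31.0, 220 and 120 FPKM in replicates 1, 2 and 3; the part of muscle RNA in that difference was not tested.

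Itgb1bp1, which encodes a protein that binds the Itgb1 tail and restrains activation of the integrin, was selective for white fat. It measured 13.1, 13.5 and 12.4 FPKM in the brown fat libraries, 41.2, 37.9 and 34.2 in those of white fat and 12.5, 14.8 and 11.6 in those of soleus. Brown against white fat gave -1.47 (SE 0.10, adjusted p = 2e-07) and white fat against soleus 1.48 (SE 0.10, adjusted p = 9.6e-08). Brown fat and soleus overlapped (0.01, adjusted p = 0.92), but the difference turned to -0.34 (adjusted p = 0.008) with upper quartile and -0.37 (adjusted p = 0.0062) with median of ratios scaling. Exons of Itgb1bp1 overlap those of Asap2 and Cpsf3 on the opposite strand by 11.4% and 5.54% of their length in the GENCODE M21 annotation, and the library kit named in the labels does not mark strand. Itgbl1, a secreted protein with integrin-like repeats, measured 0.606, 0.685 and 0.743 FPKM in the brown fat libraries, 3.87, 5.59 and 4.98 in those of white fat and 8.67, 6.82 and 4.58 in those of soleus. Brown fat was below white fat by -1.78 (SE 0.18, adjusted p = 4.6e-06) and below soleus by -2.16 (SE 0.18, adjusted p = 6.8e-07). White fat against soleus gave -0.38 (adjusted p = 0.066), and passed the threshold without soleus replicate 3 (-0.59, adjusted p = 0.0028) or white fat replicate 2 (-0.47, adjusted p = 0.043). It also passed with upper quartile (-0.56, adjusted p = 0.023) and median of ratios scaling (-0.79, adjusted p = 0.0027). White fat markers fell in the same order as Itgbl1 over the soleus libraries, summing to 160, 63.7 and 27.9 FPKM in replicates 1, 2 and 3. The soleus mean of Itgbl1 was 6.69 FPKM and its white fat mean 4.81. The part of white fat RNA in the soleus values of Itgbl1 was not tested. Itgb3bp, a centromere protein also described as a coregulator of nuclear receptors, stayed near 1 FPKM in all tissues (0.960 ± 0.113, 1.06 ± 0.200 and 1.29 ± 0.129 in brown fat, white fat and soleus). Brown fat against soleus gave -0.22 (adjusted p = 0.038), a call lost without brown fat replicate 2 (-0.17, adjusted p = 0.13) or 3 (-0.24, adjusted p = 0.063), or soleus replicate 2 (-0.18, adjusted p = 0.12) or 3 (-0.22, adjusted p = 0.074). White fat against soleus gave -0.16 (adjusted p = 0.12), and without white fat replicate 1 -0.23 (adjusted p = 0.03). With upper quartile scaling it was -0.28 (adjusted p = 0.013) and with median of ratios -0.42 (adjusted p = 0.00098).

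By the rule of being called and at least 1 log2 unit above both other tissues, 7 members were selective for white fat (Itga6, Itgam, Itgb1bp1, Itgb2, Itgb7, Lama4 and Lamc1), beside 10.8% of all genes tested. For soleus there were 2 (Itgb1bp2 and Itgb6), beside 8.67%, and for brown fat Itga1 alone. With a pseudocount of 5 no member (0) was selective for brown fat, beside 3.96% of all genes tested. On the TPM scale 15 members were selective for white fat, where the share of all genes was 22.2%. In GENCODE M21, 68.7% of the exon bases of Itgam are shared with the gene model Gm49368 on the same strand. For no other member did an overlap with a single gene, on either strand, pass 11.4%.

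**Figure D4:**
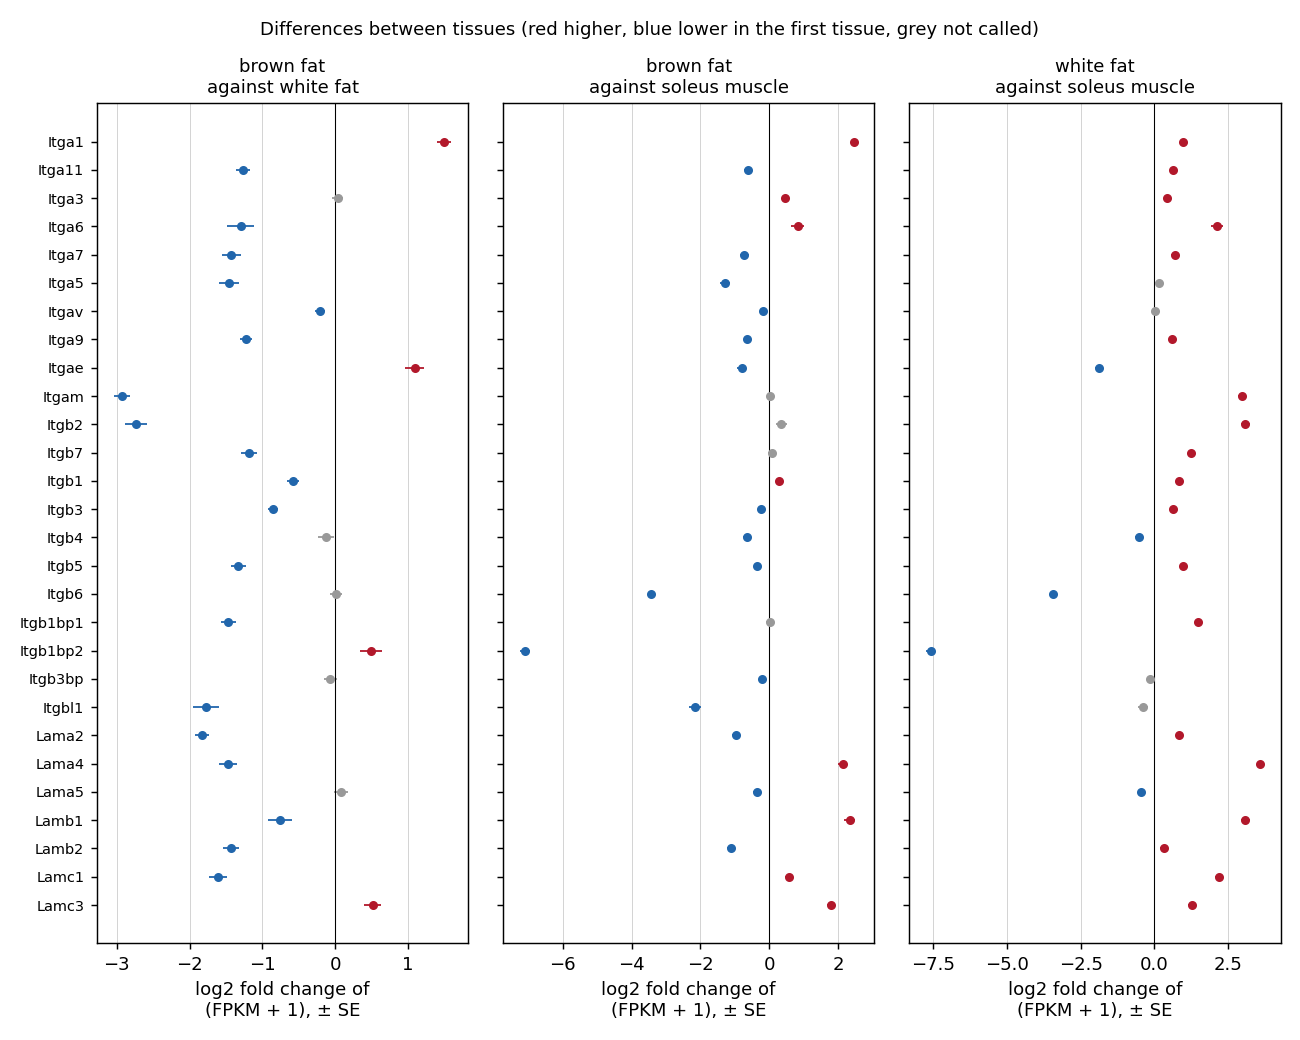
Log2 difference with its standard error for 28 tested integrin and laminin genes in the 3 comparisons of tissues, on the log2(FPKM + 1) scale. In brown against white fat 19 of the genes shown were called lower and 4 higher, Itga1, Itgae, Itgb1bp2 and Lamc3.

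Most basement membrane partners of laminin were also highest in white fat. Of 14 tested of 16 listed, 1 was higher and 13 lower in brown against white fat (median log2 difference -1.46, all genes 0.03), 5 higher and 2 lower in brown fat against soleus (0.23, all genes 0.29), and 13 higher and 0 lower in white fat against soleus (2.56, all genes 0.35). The shares of all genes called higher and lower were 38.0% and 34.8%, 52.9% and 25.6%, and 54.5% and 29.7%, in the same order. Col4a6 passed the minimum through white fat alone, at 1.62 FPKM there against 0.0176 in brown fat and 0.0227 in soleus. It therefore had to differ, and the counts only describe the list. Nid1, which links laminin gamma chains to type IV collagen, measured 15.9, 13.2 and 14.5 FPKM in the brown fat libraries, 125, 159.8 and 148 in those of white fat and 16.5, 10.9 and 15.4 in those of soleus. Thus brown fat and soleus overlapped for Nid1 although their laminin totals differed, and white fat stood far above both (brown against white fat -3.22, SE 0.14, adjusted p = 1.1e-08). Its relative Nid2 showed the same order, at 1.88 ± 0.278, 24.9 ± 4.57 and 1.44 ± 0.344 FPKM in brown fat, white fat and soleus. Col4a1, a chain of the type IV collagen network, measured 69.9 ± 6.81, 175 ± 29.9 and 23.3 ± 4.96 FPKM, in the tissue order of Lama4 and Lamc1. Agrn, a proteoglycan that binds laminin and dystroglycan, was the 1 gene called higher in brown than in white fat: 6.70 ± 0.322 FPKM in brown fat, beside 3.57 ± 0.201 in white fat and 2.17 ± 0.0844 in soleus (brown against white fat 0.75, SE 0.07, adjusted p = 2.2e-06). Ntn4 averaged 1.13, 5.50 and 5.99 FPKM in brown fat, white fat and soleus. Its white fat and soleus libraries overlapped (white fat against soleus -0.09, SE 0.13, adjusted p = 0.53). The 7 measured mesothelial markers also moved with the white fat libraries, from 75.0 to 112 FPKM there against at most 2.41 elsewhere, and their part in these levels was not tested.

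Dystroglycan, the other laminin receptor of muscle, did not follow the integrins. Dag1 measured 67.9, 83.7 and 74.9 FPKM in the brown fat libraries, 30.8, 35.9 and 31.4 in those of white fat and 48.6, 44.7 and 58.3 in those of soleus. Brown fat stood highest without overlap, with log2 differences of 1.18 (SE 0.11, adjusted p = 4e-06) against white fat and 0.57 (SE 0.11, adjusted p = 0.00084) against soleus. Of the 9 genes of this list that were measured and tested, 4 were higher and 3 lower in brown against white fat (median 0.08), 5 higher and 4 lower in brown fat against soleus (0.41), and 4 higher and 5 lower in white fat against soleus (-0.61). Over all genes tested, the shares called higher and lower were 38.0% and 34.8%, 52.9% and 25.6%, and 54.5% and 29.7%, in the same order. No statement about this short list is drawn from its counts. The enzymes that build the laminin-binding sugar of dystroglycan split in direction. Pomt1, which starts the chain, was 17.4 ± 0.681, 9.26 ± 0.507 and 3.06 ± 0.262 FPKM in brown fat, white fat and soleus, highest in brown fat (brown fat against soleus 2.18, SE 0.07, adjusted p = 5.3e-10). B3galnt2, which adds a sugar to the core of that chain, was 3.65 ± 0.128, 3.40 ± 0.146 and 10.6 ± 1.49 FPKM, highest in soleus (brown fat against soleus -1.32, SE 0.09, adjusted p = 1.8e-07). Between the fats the difference for B3galnt2 was 0.08 (adjusted p = 0.47), and it turned to -0.45 (adjusted p = 0.0018) on the TPM scale.

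Among the genes of integrin activation and focal adhesions, 25 of 27 were tested. By limma, 0 were higher and 20 lower in brown against white fat (median -0.73), beside 38.0% and 34.8% of all genes tested. In brown fat against soleus 10 were higher and 9 lower (0.03), beside 52.9% and 25.6%. In white fat against soleus 18 were higher and 4 lower (1.47), beside 54.5% and 29.7%. The parvins, which link integrin-linked kinase to actin, exchanged places: Parva measured 13.9 ± 0.770 FPKM in brown fat, beside 28.7 ± 0.175 in white fat and 4.23 ± 0.470 in soleus, and Parvb 1.64 ± 0.178, 3.27 ± 0.341 and 16.3 ± 1.56. Parva was higher in white fat than in soleus by 2.51 (SE 0.08, adjusted p = 3.4e-10), and for Parvb the same difference was -2.01 (SE 0.09, adjusted p = 5e-09). Apbb1ip, which brings talin to integrins in blood cells, was highest in white fat, at 0.517 ± 0.0102, 8.74 ± 0.482 and 0.934 ± 0.316 FPKM, with brown fat below soleus (-0.34, SE 0.10, adjusted p = 0.012). Ptk2b, a focal adhesion kinase relative, was 9.64 ± 1.30 and 9.18 ± 0.298 FPKM in brown and white fat and 0.208 ± 0.0923 in soleus (brown fat against soleus 3.13, SE 0.10, adjusted p = 2.5e-10).

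**Figure D5:**
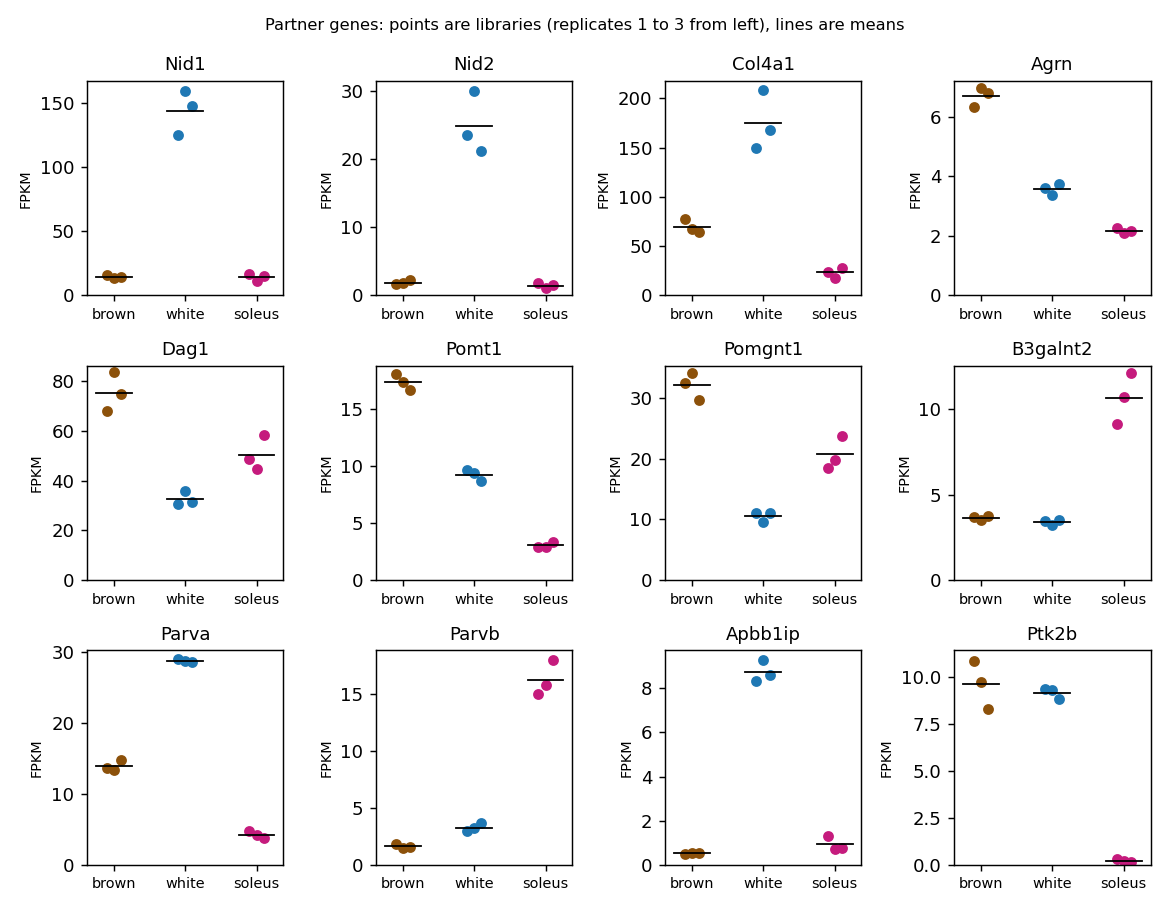
FPKM of selected partners of the laminins and integrins by tissue, with 1 point per library, a line at the mean and a separate linear axis from 0 for each gene. Nid1 stands high in white fat alone, Dag1 is highest in brown fat, and Parva and Parvb lie in opposite order in soleus and the fats.

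Of the integrin ligands other than laminin, 13 of 20 were tested. In brown against white fat 1 was higher and 9 lower (median -1.27), beside 38.0% and 34.8% of all genes tested. In brown fat against soleus 1 was higher and 6 lower (-0.23), beside 52.9% and 25.6%. In white fat against soleus 9 were higher and 2 lower (1.00), beside 54.5% and 29.7%. Fn1, fibronectin, the ligand of the receptor that contains Itga5, measured 5.17, 4.44 and 5.91 FPKM in the brown fat libraries, 107, 135 and 147 in those of white fat and 15.6, 11.3 and 16.0 in those of soleus. It had the largest difference of the list between the fats (-4.40, SE 0.15, adjusted p = 2.2e-09) and the same order of tissue means as Itga5, with white fat first and brown fat last. White fat stood above soleus for Fn1 by 3.10 (SE 0.15, adjusted p = 9.5e-09), while for Itga5 these 2 tissues overlapped. Npnt, a ligand of the receptor that contains Itga8, stood above white fat in brown fat (2.06 ± 0.665 against 0.566 ± 0.0783 FPKM; 0.95, SE 0.13, adjusted p = 5e-05). Spp1, osteopontin, was 4.32, 6.09 and 5.15 FPKM in soleus and at most 1.04 in any fat library.

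The remaining untested member is Itgb2l, a neutrophil relative of Itgb2, listed at 0 in all libraries except white fat replicate 3 at 0.00471 FPKM. In all, 10 members stayed under the minimum, with a highest value of 1.67 FPKM. None of them was tested, and any order of tissues given for them describes low values only.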

How the data were processed

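RNA of 9 libraries (brown fat, white fat, soleus; 3 each) was sequenced after TRIzol extraction and TruSeq RNA v2 preparation, per the labels' protocols. The authors deposited 1 matrix of FPKM per RefSeq transcript; TopHat 1.4.1, Cufflinks 2.0.1 and mm9 are named in the submitters' processing notes. Of 18401 accessions, 18305 were named from the RefSeq gene table and 38 from GENCODE; 55 without a symbol and 3 with several were left out (0.0339 to 0.36% of a library's FPKM). Accessions of 1 symbol were summed, giving 17753 genes, 541 of them from more than 1 accession.

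Genes that reached 1 FPKM in 3 or more libraries were fitted with limma 3.58.1 (R 4.3.3) on log2(FPKM + 1) with a mean-variance trend, all 9 libraries in 1 fit and the tissues as groups; p-values are two-sided and adjusted by Benjamini-Hochberg over the 9913 genes of each comparison, with a threshold of 0.05. A log2 difference on this scale understates the change of low genes. FPKM hold no counts, so depth per gene is unknown. Shares were compared with exact permutation tests (scipy 1.17.1). Alternatives changed the pseudocount (0.1 or 5), filter, scaling, libraries fitted, variance model, accession summing and replicate block. Every member with a tissue mean of at least 1 FPKM is described; from each pathway list the most changed and most abundant genes are named. The members and lists were chosen with earlier results of these data known. A few genes, 1 of them a member, are counted but not reported singly here.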

Additional observations from a re-analysis of the deposited data

How the results depend on the processing

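Over the alternatives, 1676 of 1731 member differences kept their side of the threshold, and their direction where called. Of the others, 26 lost a call, 21 gained one and 8 reversed, meaning a change of sign with a call before or after. With 1 library left out, 759 were kept, 16 lost a call, 8 gained one and 0 reversed. A difference called neither before nor after was counted as kept whatever its sign. The cause of the changes below was not tested. Of the members, those lower in white fat than in soleus went from 5 to 9 with upper quartile and 9 with median of ratios scaling, while the share of all genes so called went from 29.7% to 35.4% and 43.0%; those selective for brown fat went from 1 to 0 with a pseudocount of 5, and for white fat from 7 to 15 with TPM (all genes from 6.42% to 3.96% and from 10.8% to 22.2%). With TPM the focal adhesion genes lower in white fat than in soleus went from 4 to 2, the dystroglycan genes lower in brown than in white fat from 3 to 5, and those lower in white fat than in soleus from 5 to 3. With median of ratios, focal adhesion genes lower in white fat than in soleus were 7, basement membrane partners 1 and other ligands 4. With upper quartile and with median of ratios alike, dystroglycan genes higher than in soleus were 3 in brown and 2 in white fat, and other ligands in brown fat against soleus were 0 higher and 10 lower. For all genes, TPM moved those lower in brown than in white fat from 34.8% to 61.9% and those lower in white fat than in soleus to 18.9%; upper quartile and median of ratios moved those higher in brown fat than in soleus from 52.9% to 38.8% and 38.0%, and those lower from 25.6% to 37.2% and 39.0%. Other ligands higher in brown than in white fat were 2 without a filter and 1 to 3 with 1 library left out, 3 without white fat replicate 2.

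On reversals, brown against white fat with TPM gave -0.44 for Itga3, -0.51 for Ptk2b and -0.45 for B3galnt2, and white fat against soleus with TPM gave 0.43 for Ntn4 and 0.46 for Vtn. White fat against soleus gave -0.16 for Itgav with upper quartile and, with median of ratios, -0.39 for Itgav, -0.13 for Lamb2 and -0.12 for Smoc2. Brown fat against soleus gave -0.09 and -0.13 for Itgb1 and -0.34 and -0.37 for Itgb1bp1 with upper quartile and median of ratios. A fit of only the 2 tissues compared gives no value for selective genes.

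Between tissues, correlations of deviations ran from -0.22 to 0.08 for libraries with the same replicate number and from -0.19 to 0.36 for the others. With 3 libraries per tissue, these values cannot decide whether libraries with the same number share a mouse. With the number as a block, members lower in brown fat than in soleus were 16 in place of 17 (Itgb3bp, -0.22, adjusted p = 0.057), and the other member counts were 4 and 20 in brown against white fat, 8 higher in brown fat than in soleus, with 19 higher and 5 lower when white fat was set against soleus. Soleus genes listed at 0 and the 10 members under the minimum limit what this matrix can show.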

Other observations

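Sparc, a collagen-binding matrix protein that was the most abundant gene of the basement membrane list, measured 335 to 400.1 FPKM in the brown fat libraries, 1134 to 1590.3 in white fat and 201 to 270.2 in soleus. Smoc1, its relative, was 78.3 ± 1.15 FPKM in white fat and 29.6 ± 4.08 in brown fat, and in soleus 1.63, 0.564 and 0.309 in replicates 1, 2 and 3, the order in which white fat markers fell there (160, 63.7 and 27.9 FPKM). The part of white fat RNA in the soleus values of Smoc1 was not tested. Fbn1, fibrillin, and Thbs1, thrombospondin, were both highest in white fat, at 53.6 ± 17.1 and 22.1 ± 7.31 FPKM. Postn, periostin, spread from 19.6 to 47.8 FPKM over the white fat libraries, which overlapped both other tissues, and was higher in brown fat (33.7 to 40.3) than in soleus (19.3 to 20.9) by a log2 difference of 0.86 (limma adjusted p = 0.0067). Among focal adhesion genes, Tns1, a tensin, was the most abundant, at 115 ± 8.14 FPKM in brown fat and 143 ± 17.9 in white fat, against 35.8 ± 5.61 in soleus. Pxn, paxillin, and Lims1, a partner of integrin-linked kinase, were highest in soleus, at 14.1 ± 0.769 and 25.2 ± 0.820 FPKM.

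The 5 measured platelet markers summed to 7.91 to 8.99 FPKM in brown fat, 74.5 to 80.3 in white fat and 6.18 to 10.6 in soleus. Nearly all of this was Pf4, while Gp9 was at most 0.275 FPKM, and the platelet integrin subunit Itga2b was lowest on average in white fat, at 0.375 ± 0.0687 FPKM against 0.607 ± 0.0771 in brown fat.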
